A study of Mus musculus with 8 samples.

Results

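Wnt proteins are secreted, lipid-bearing ligands, and frizzled proteins (Fzd) are the membrane receptors that bind them. Secreted frizzled-related proteins (Sfrp), dickkopf proteins (Dkk) and Wif1 are secreted antagonists, R-spondins (Rspo) are secreted proteins that strengthen the signal through the receptors Lgr4, Lgr5 and Lgr6, and Axin2 is a gene that the pathway switches on and that dampens it in return. The genes of these families were taken by symbol. They number 46, all with a probe on the array: 19 ligands, 10 frizzled receptors, 9 antagonists, 4 R-spondins, 3 Lgr receptors and Axin2. Of these 46, 34 had a signal well above background in both mice of 1 or more groups and are described here, among 16565 such genes of 22911 named genes with a probe. The other 12 genes were Wnt2b, Wnt3, Wnt8a, Wnt8b, Wnt9b, Wnt16, Fzd9, Dkk1, Dkk2, Dkk4, Lgr5 and Lgr6, and they did not pass in any group.

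The values came from the lungs of 8 female BALB/c mice, bought at 4 weeks of age, housed for 2 weeks and then fed for 70 days, with 2 mice in each of 4 groups. NT mice ate standard feed and met no ovalbumin (OVA). Ctrl-F mice ate standard feed, Cap-F mice ate feed with the control particle, and ODNcap-F mice ate feed with particles that carry CpG oligodeoxynucleotide. These 3 groups were sensitized to OVA with aluminum oxide gel on Days 42, 49 and 56, inhaled 2% OVA aerosol daily from Day 63 to Day 69, and their lungs were taken 24 h later, after 70 days of feed. The NT group differs from the others in sensitization and in inhalation at once, so these cannot be told apart, and whole lung RNA cannot separate fewer cells of a type from less RNA per cell.

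Each mouse had 1 single-color array, all on 1 slide, and values are log2 signals after quantile normalization, with 1 probe, the brightest, for each gene. Between 61.3% and 65.0% of the probes on an array were well above background, and mice of 1 group correlated at 0.994 to 0.996 over the probes. NT and Ctrl-F lay in row 1 of the slide and Cap-F and ODNcap-F in row 2, so that group and row cannot be told apart in comparisons across the rows. The 9 lung identity markers, among them the surfactant proteins, were measured on all arrays, with a summed log2 signal of 19.59 to 19.60 in NT and 19.42 to 19.48 in the challenged mice.

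In the lung, Wnt ligands and their receptors are known for branching of the embryonic airways and for the upkeep of alveolar cells in the adult. A Wnt bound to a frizzled and a co-receptor can stabilize beta-catenin, which acts in the nucleus with TCF and LEF proteins, whereas other Wnts act without beta-catenin on cell shape and polarity. Several Wnt genes sit side by side in the mouse genome. Among the genes measured here Wnt6 and Wnt10a are neighbours on chromosome 1, Wnt10b and Wnt1 on chromosome 15, and Wnt3a and Wnt9a on chromosome 11, with no protein-coding gene between them in the RefSeq table. The sequences below are the 250 bases before the start that the promoter table lists for Wnt6, Wnt10b, Wnt1, Wnt3a, Wnt9a and Lgr4. The Wnt genes are shown because the members of each pair moved the same way. Lgr4 is shown for a difference between feeds in its brightest probe, which did not pass adjustment and was not seen in its dimmer probe. The sequences are from RefSeq (GRCm38.p6), read 5′ to 3′ on the strand of the gene. The listed start can differ from the outer bound of the gene: the window of Wnt6 lies inside the span that RefSeq gives the gene, and those of Wnt10b and Wnt9a overlap its beginning. Capitals mark matches to the motifs searched on both strands, the GC box GGGCGG in the Wnt genes and, in Lgr4, the STAT6 motif of TTC and GAA with any 4 bases between them. Their positions are chr1:74771642-74771891 on the plus strand, chr15:98778151-98778400 on the minus strand, chr15:98789607-98789856 on the plus strand, chr11:59290752-59291001 on the minus strand, chr11:59306680-59306929 on the plus strand and chr2:109917397-109917646 on the plus strand.
Wnt6: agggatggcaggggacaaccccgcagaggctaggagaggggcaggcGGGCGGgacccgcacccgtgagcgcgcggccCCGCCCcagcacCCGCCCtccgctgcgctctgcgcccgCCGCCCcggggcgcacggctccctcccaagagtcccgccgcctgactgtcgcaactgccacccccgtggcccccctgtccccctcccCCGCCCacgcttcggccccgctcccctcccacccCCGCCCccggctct
Wnt10b: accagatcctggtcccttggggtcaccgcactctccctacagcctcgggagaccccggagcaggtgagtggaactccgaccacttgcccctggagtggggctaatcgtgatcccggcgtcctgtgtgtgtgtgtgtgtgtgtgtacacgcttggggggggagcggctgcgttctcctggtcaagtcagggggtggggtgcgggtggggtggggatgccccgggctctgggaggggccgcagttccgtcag
Wnt1: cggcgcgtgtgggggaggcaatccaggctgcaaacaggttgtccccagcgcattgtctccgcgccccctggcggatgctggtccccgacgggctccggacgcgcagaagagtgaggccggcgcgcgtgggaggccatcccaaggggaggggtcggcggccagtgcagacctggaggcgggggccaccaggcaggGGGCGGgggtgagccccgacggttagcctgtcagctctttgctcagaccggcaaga
Wnt3a: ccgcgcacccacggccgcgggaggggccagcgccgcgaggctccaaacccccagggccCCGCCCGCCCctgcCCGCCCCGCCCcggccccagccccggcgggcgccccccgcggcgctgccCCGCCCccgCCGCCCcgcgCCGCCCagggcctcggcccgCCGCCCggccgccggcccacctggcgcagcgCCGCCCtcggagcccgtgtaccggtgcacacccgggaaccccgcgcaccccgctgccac
Wnt9a: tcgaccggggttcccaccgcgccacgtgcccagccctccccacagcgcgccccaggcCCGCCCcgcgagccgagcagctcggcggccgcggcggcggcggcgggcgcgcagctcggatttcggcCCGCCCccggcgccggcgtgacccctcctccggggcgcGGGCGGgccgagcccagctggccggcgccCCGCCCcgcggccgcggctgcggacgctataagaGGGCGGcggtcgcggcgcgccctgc
Lgr4: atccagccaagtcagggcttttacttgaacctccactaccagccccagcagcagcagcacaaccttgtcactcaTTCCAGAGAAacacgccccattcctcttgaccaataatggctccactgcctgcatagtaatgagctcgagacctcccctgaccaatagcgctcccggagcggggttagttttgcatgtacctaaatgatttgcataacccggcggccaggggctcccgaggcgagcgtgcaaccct

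The GC box occurred 6 times before Wnt6, 9 times before Wnt3a with 2 overlaps between matches, 5 times before Wnt9a and 1 time before Wnt1, and these letters did not occur before Wnt10b or Lgr4. Of the 34 genes, 22 were in the promoter table, with 25 promoters, and 72% of these held a GC box, against 32.7% of 32851 promoters of the same length. TCF/LEF letters (CTTTGAT or CTTTGTT) were in 12% against 8.06%, the STAT6 motif in 4% against 5.85% and a TATA box (TATAAA) in 12% against 12.4%. A match of letters is a description and not a binding site.

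The first question of the design is what OVA sensitization and challenge changed against healthy lungs. In the 6 challenged mice most of these genes read lower than in NT. Wnt10b, Wif1, Wnt1, Wnt3a and Rspo1 fell the most, and Wnt10a, Rspo2, Fzd10, Wnt6 and Sfrp1 rose. By limma, with the adjusted p below 0.05 and a more than 2-fold change, 21 of the 34 genes were called when the mean of the 3 challenged groups was set against NT, of which 5 rose and 16 fell, where 21.8% of all 16565 genes were called, 11.0% higher and 10.8% lower. The median log2 difference was -0.96 over the 34 genes and -0.10 over all genes. Setting the 2 genes that lay below background in NT at their bound could not move this median, as both bounds lie above it.

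Ctrl-F against NT gave 5 genes that rose and 17 that fell (23.3% of all genes called, 11.3% higher and 12.0% lower). Cap-F against NT gave 5 and 11 (20.9% of all genes, 10.7% and 10.2%). ODNcap-F against NT gave 5 and 15 (21.0% of all genes, 10.9% and 10.1%). Under normexp background correction the counts were 2 and 11 for Ctrl-F (15.0% of all genes called), 2 and 8 for Cap-F (13.2%), 2 and 9 for ODNcap-F (13.4%) and 2 and 12 over the 3 groups (13.7%), and the 2 genes that rose were Wnt10a and Fzd10. The median log2 difference over the 34 genes was -1.04 for Ctrl-F, -0.69 for Cap-F and -0.91 for ODNcap-F. The 3 comparisons share the NT mice, and 13 of the genes were called in all of them (17.7% of all genes) and 23 in at least 1 (26.2%). Wnt10a and Rspo2 passed the background filter only through the challenged groups, and Rspo4 and Sfrp5 were below background on some challenged arrays. Of the 30 genes above background on all 8 arrays, 3 rose and 15 fell in the challenged mice. The shares over all genes given above are for genes that passed in any group, not for those above background on all 8 arrays.

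**Figure D1:**
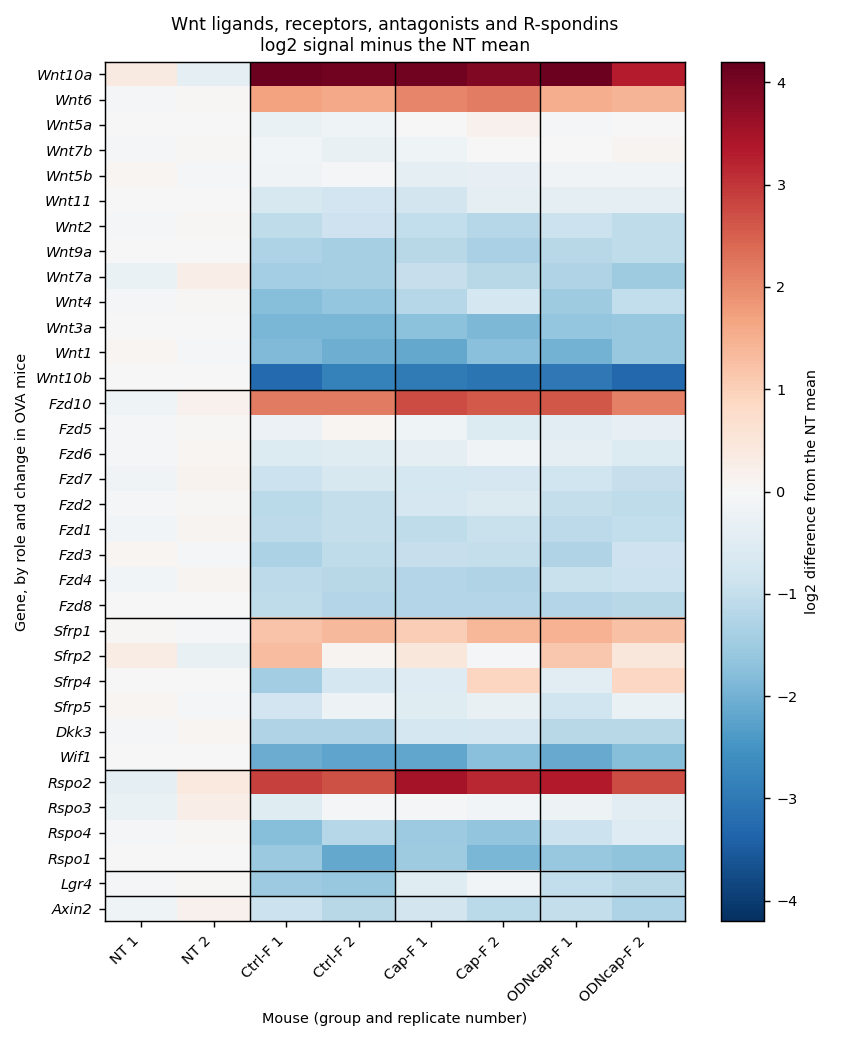
Log2 signal of each of the 34 genes (rows, ordered by role and by change) in each of the 8 mice (columns), as the log2 difference from the mean of the NT mice. Red is above and blue below that mean, and the 6 challenged mice share the red rows of Wnt10a, Wnt6, Fzd10, Sfrp1 and Rspo2 and the blue rows of Wnt10b, Wnt1, Wnt3a, Wif1 and Rspo1.

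Markers of other cells moved between the same groups. The goblet cell list (5 of 5 genes measured) had a summed log2 signal of 10.84 to 11.68 in NT and 16.89 to 17.66 in the challenged mice. For B and plasma cells (5 of 5) it was 12.17 to 12.60 against 16.93 to 17.12, for macrophages (6 of 6) 14.64 to 14.66 against 17.28 to 17.36, and for eosinophils (6 of 6) 12.62 to 12.74 against 13.79 to 14.21. By limma 5 of 5 goblet cell, 5 of 5 B and plasma cell, 5 of 6 macrophage and 5 of 6 eosinophil genes were called higher over the challenged mice, and 1 macrophage gene lower. The sums were thus higher in every challenged mouse, as were those of T cells (7 of 8, 12.97 to 13.39 against 13.63 to 14.13) and of cartilage (2 of 6, 8.20 to 8.48 against 9.96 to 10.16). Only 1 of the 7 measured T cell genes was called higher over the challenged mice, against 2 of the 2 measured cartilage genes. Of the cartilage list Acan, Col9a1, Snorc and Matn3 were not above background in both mice of any group.

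Of lists of the resident lung, the summed log2 signal of alveolar type 1 cells (7 of 8) was 18.02 to 18.09 in NT and 16.85 to 17.11 in the challenged mice, with 5 genes called lower. That of endothelium (6 of 6) was 16.11 in both NT mice and 14.69 to 14.99, with 4 called lower, and that of mesothelium (4 of 4) 13.38 in both NT mice and 11.64 to 12.24, with 2 called lower. The ciliated cell list (6 of 6) summed to 16.00 to 16.02 and 14.30 to 14.89, but 1 of its genes was called lower, the median log2 difference was -0.61, and the brightest gene, Tppp3, had log2 signals of 15.68 and 15.65 in NT and 13.65 to 14.18 in the challenged mice. Foxj1 and Dnah5 of that list overlapped between the groups. For alveolar type 2 cells (7 of 7) the sum was 18.67 to 18.69 and 18.48 to 18.55, with none of the genes called and a median log2 difference of -0.48. The fibroblast sum (8 of 8, 15.58 to 15.62 against 15.46 to 15.91) overlapped between the groups, yet 5 of its genes, Pdgfra, Tcf21, Dcn, Lum and Npnt, were called lower and 1, the collagen Col3a1, higher, with a median log2 difference of -1.32. These marker genes were named after their values were seen. The smooth muscle sum (6 of 6, 15.02 to 15.14 against 14.85 to 15.48) overlapped as well, with none of its genes called and a median log2 difference of 0.13. The cardiomyocyte list (6 of 6) stood at 13.30 to 14.45 for NT, 10.05 to 10.77 for Ctrl-F, 9.98 to 13.31 for Cap-F and 12.78 to 13.55 for ODNcap-F, and the adipocyte list (5 of 5) at 11.64 to 12.10, 8.27 to 9.09, 8.47 to 10.95 and 10.56 to 11.48. The part of these cells in the changes of Wnt genes was not tested.

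**Figure D2:**
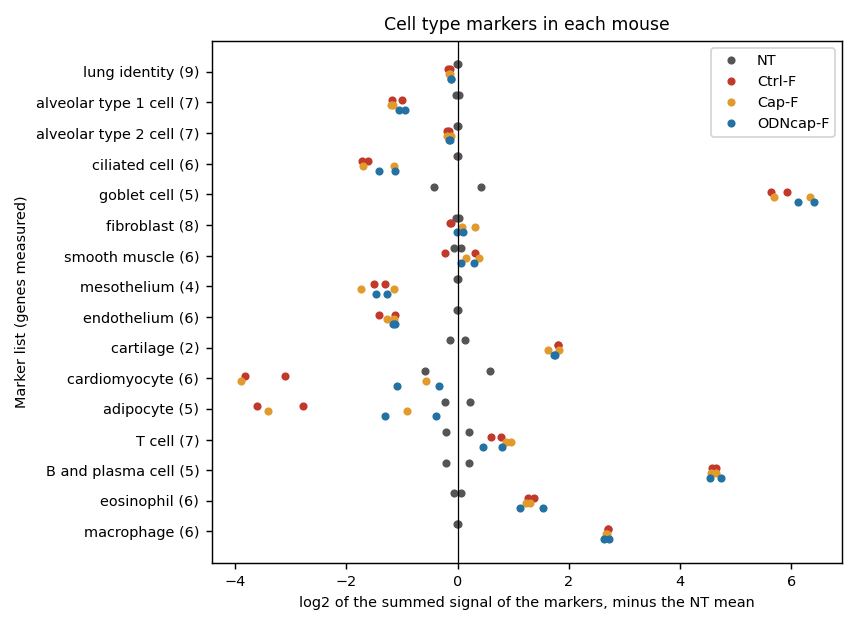
Summed signal of each cell type marker list in each mouse, on the log2 scale, as the difference from the mean of the NT mice. Each point is 1 mouse, colors are the 4 groups, and the number after each list is how many of its genes were measured. The sums of goblet cell, B and plasma cell and macrophage lists lie right of 0 in all challenged mice, and those of alveolar type 1 cells, endothelium, ciliated cells and mesothelium lie left of it.

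Among the 13 measured ligands, 2 rose, 7 fell and 4 were not called in the challenged mice. The 2 that rose were the neighbours Wnt10a and Wnt6. Wnt10a, a ligand known from teeth, hair and skin, had log2 signals of 3.40 and 2.66 in the NT mice, 7.14 and 7.08 in Ctrl-F, 7.07 and 6.90 in Cap-F, and 7.15 and 6.32 in ODNcap-F. Both NT values were not well above background, and all challenged mice were far above them, so that Wnt10a was at least 9.98-fold higher in the challenged mice (adjusted p = 8.24e-05 by limma). By group the rise was at least 11.2-fold for Ctrl-F, 10.3-fold for Cap-F and 8.64-fold for ODNcap-F. Under normexp Wnt10a stayed called with a log2 difference of 1.28 over the 3 groups, which is less than its bound. Wnt10a passed the background filter only through the challenged groups, so its p is not separate support for the rise.

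Wnt6, a ligand made by many epithelia, had log2 signals of 3.98 and 4.07 in the NT mice, 5.71 and 5.62 in Ctrl-F, 6.09 and 6.17 in Cap-F, and 5.55 and 5.45 in ODNcap-F. It was dim in NT but above background on all arrays, and the groups did not overlap. Its log2 difference was 1.74 ± 0.07 (SE, adjusted p = 1.12e-05), and under normexp it was 0.60 and not called.

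The neighbours Wnt10b and Wnt1 both fell. Wnt10b, known for favoring bone over fat formation, had log2 signals of 9.23 and 9.28 in the NT mice, 6.0 and 6.43 in Ctrl-F, 6.30 and 6.20 in Cap-F, and 6.24 and 5.96 in ODNcap-F. Every challenged mouse was far below both NT mice, and the log2 difference of -3.07 ± 0.13 (SE, adjusted p = 1.84e-05) was the lowest of the 34 genes. Its dimmer probe gave -3.38. Wnt1, the first mammalian Wnt gene to be described and an activator of beta-catenin, had log2 signals of 10.36 and 10.21 in the NT mice, 8.42 and 8.24 in Ctrl-F, 8.12 and 8.52 in Cap-F, and 8.30 and 8.71 in ODNcap-F. The challenged mice of all 3 feeds lay together below NT, and the log2 difference was -1.90 ± 0.15 (SE, adjusted p = 0.000137).

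Wnt3a and Wnt9a, the pair on chromosome 11, also fell together. Wnt3a, the ligand most used to activate beta-catenin in culture, had log2 signals of 9.63 and 9.64 in the NT mice, 7.71 and 7.72 in Ctrl-F, 7.91 and 7.75 in Cap-F, and 8.02 and 8.04 in ODNcap-F. Mice of 1 group lay close together and the groups did not overlap, and the log2 difference was -1.78 ± 0.06 (SE, adjusted p = 8.6e-06). Wnt9a, known from joint formation, had log2 signals of 9.03 and 9.09 in the NT mice, 7.77 and 7.67 in Ctrl-F, 7.90 and 7.69 in Cap-F, and 7.88 and 7.98 in ODNcap-F. The groups did not overlap, and the log2 difference was -1.24 ± 0.08 (SE, adjusted p = 5.83e-05). The fourth neighbouring pair, Wnt9b and Wnt3, was not above background in both mice of any group.

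Wnt2, Wnt4 and Wnt7a fell as well. Wnt2, a ligand of the lung mesenchyme that the embryonic lung needs, had log2 signals of 11.35 and 11.44 in the NT mice, 10.32 and 10.53 in Ctrl-F, 10.37 and 10.19 in Cap-F, and 10.51 and 10.33 in ODNcap-F. All challenged mice were lower by about the same amount, with a log2 difference of -1.02 ± 0.09 (SE, adjusted p = 0.000229), just past a fold of 2. It was called in Cap-F (-1.12) but was -0.98 in Ctrl-F and -0.97 in ODNcap-F, and without NT mouse 2 the value over the 3 groups was -0.97 and not called. It was also just under the fold of 2, at -0.99, without Ctrl-F mouse 1, Cap-F mouse 2 or ODNcap-F mouse 2 and with scaling to the 75th percentile.

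Wnt4, known from kidney and gonad development, had log2 signals of 8.59 and 8.68 in the NT mice, 6.84 and 7.01 in Ctrl-F, 7.43 and 7.91 in Cap-F, and 7.13 and 7.59 in ODNcap-F. Ctrl-F mice were the lowest and no challenged mouse reached NT, and the log2 difference was -1.32 ± 0.17 (SE, adjusted p = 0.000908). Cap-F alone gave -0.97, under the fold of 2. Wnt7a, known from limb patterning, had log2 signals of 8.68 and 9.24 in the NT mice, 7.54 and 7.56 in Ctrl-F, 8.0 and 7.78 in Cap-F, and 7.70 and 7.48 in ODNcap-F. The pair of NT mice was farther apart than that of any challenged group, yet the groups did not overlap, and the log2 difference was -1.28 ± 0.16 (SE, adjusted p = 0.000733). In Cap-F alone it was -1.07, or -0.79 without NT mouse 2 and -0.96 without Cap-F mouse 2, neither called.

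The other 4 ligands, Wnt5a, Wnt5b, Wnt7b and Wnt11, are known mainly for signalling without beta-catenin, apart from Wnt7b, a ligand of the lung epithelium. Wnt5a had log2 signals of 8.61 and 8.67 in the NT mice, 8.37 and 8.45 in Ctrl-F, 8.64 and 8.82 in Cap-F, and 8.54 and 8.64 in ODNcap-F, and its groups overlapped, with a log2 difference of -0.06 (95% interval -0.24 to 0.12). Wnt5b had log2 signals of 8.90 and 8.73 in the NT mice, 8.66 and 8.72 in Ctrl-F, 8.42 and 8.47 in Cap-F, and 8.67 and 8.67 in ODNcap-F, with a log2 difference of -0.22 (-0.38 to -0.06). Wnt7b stayed between 6.98 and 7.39 in all mice, with a log2 difference of -0.08 (-0.31 to 0.14). These 3 intervals lie within a fold change of 2 in either direction. Wnt11 had log2 signals of 7.55 and 7.61 in the NT mice, 6.90 and 6.77 in Ctrl-F, 6.81 and 7.17 in Cap-F, and 7.21 and 7.19 in ODNcap-F, and its log2 difference of -0.58 ± 0.10 (SE, adjusted p = 0.0036) passed the adjusted p but not the fold.

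**Figure D3:**
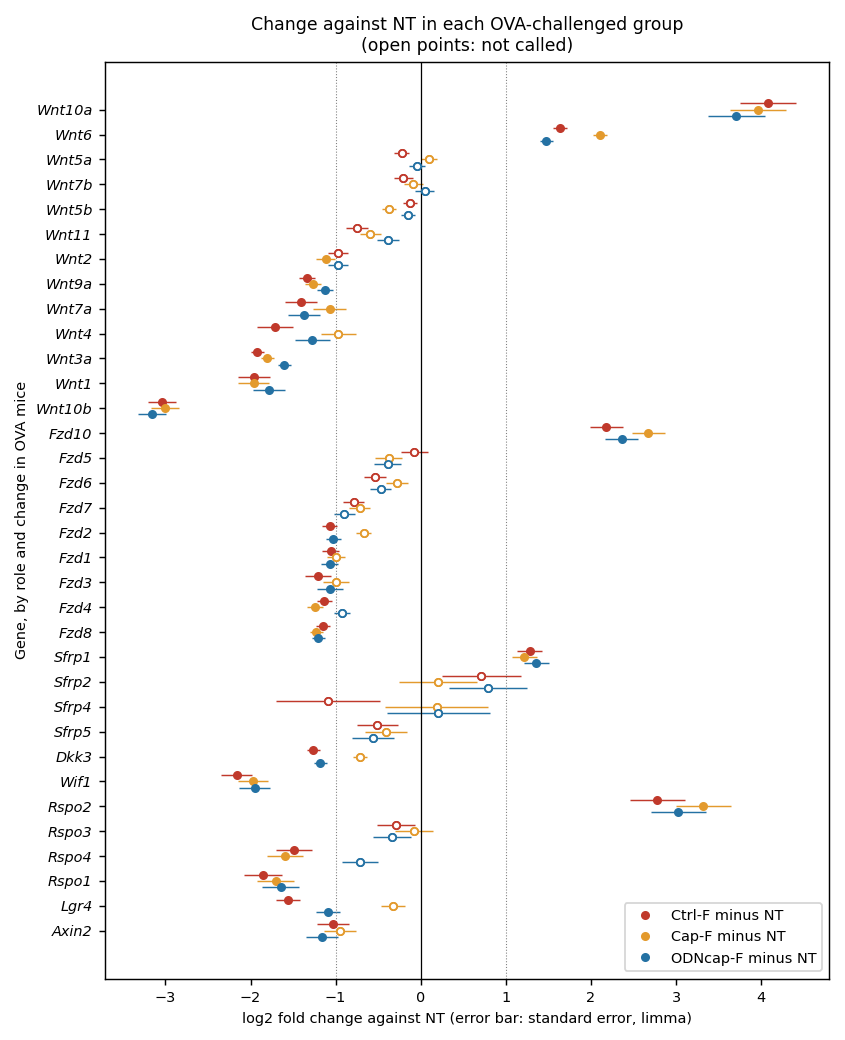
Log2 fold change of each gene (rows) in each of the 3 challenged groups against the NT mice they share, with the standard error from limma as bar. Filled points were called and open points were not, dotted lines mark a fold of 2, and Wnt10b stands lowest near -3 and Wnt10a highest near 4 in all 3 groups. For Wnt10a and Rspo2 the fitted values against NT signals below background are plotted, not the bounds.

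Of the 9 measured frizzled receptors, 1 rose, 4 fell and 4 were not called in the challenged mice. The one that rose was Fzd10, a receptor that activates beta-catenin, with log2 signals of 4.57 and 4.94 in the NT mice, 6.92 and 6.94 in Ctrl-F, 7.51 and 7.34 in Cap-F, and 7.36 and 6.87 in ODNcap-F. All challenged mice were far above both NT mice, and the log2 difference was 2.40 ± 0.16 (SE, adjusted p = 6.77e-05). This was called in each of the 3 groups, with 2.18 for Ctrl-F, 2.67 for Cap-F and 2.36 for ODNcap-F. Under normexp it stayed called in all of them, and the log2 difference over the 3 groups was 1.18.

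Fzd8, Fzd4, Fzd3 and Fzd1 fell. Fzd8, a close relative of Fzd5, had log2 signals of 7.31 and 7.32 in the NT mice, 6.25 and 6.09 in Ctrl-F, 6.08 and 6.10 in Cap-F, and 6.08 and 6.15 in ODNcap-F, and its log2 difference was -1.19 ± 0.06 (SE, adjusted p = 3.38e-05), or -0.70 and not called under normexp. Fzd4, a receptor of retinal and other vessels, had log2 signals of 11.65 and 11.88 in the NT mice, 10.67 and 10.60 in Ctrl-F, 10.53 and 10.52 in Cap-F, and 10.83 and 10.85 in ODNcap-F, with a log2 difference of -1.10 ± 0.07 (SE, adjusted p = 7.44e-05). For both receptors the mice within a challenged group nearly coincided and stood apart from NT. The endothelial marker sum was lower in the same mice, as were those of alveolar type 1 cells, mesothelium and ciliated cells. The alveolar type 2 sum was lower too, but none of its genes was called. A link of these lists to Fzd4 was not tested.

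Fzd3, known from axon guidance and planar polarity, had log2 signals of 7.03 and 6.88 in the NT mice, 5.62 and 5.88 in Ctrl-F, 5.97 and 5.95 in Cap-F, and 5.70 and 6.08 in ODNcap-F, and its log2 difference was -1.09 ± 0.12 (SE, adjusted p = 0.000545), or -0.64 and not called under normexp. Fzd1, which is related to Fzd2 and Fzd7, had log2 signals of 10.96 and 11.19 in the NT mice, 9.97 and 10.07 in Ctrl-F, 10.02 and 10.14 in Cap-F, and 9.99 and 10.03 in ODNcap-F, with a log2 difference of -1.04 ± 0.08 (SE, adjusted p = 0.000131). NT mouse 1 was the lower of the NT mice for Fzd1 and Fzd4, and without NT mouse 2 their log2 differences were -0.93 and -0.99 and not called.

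Fzd2 had log2 signals of 9.98 and 10.11 in the NT mice, 8.90 and 9.05 in Ctrl-F, 9.33 and 9.42 in Cap-F, and 9.04 and 8.99 in ODNcap-F. It was called in Ctrl-F (-1.07) and in ODNcap-F (-1.03) but not over the 3 groups (-0.92, adjusted p = 0.000127), as Cap-F mice were less far below NT. Under normexp both calls were lost (-0.96 and -0.93). The other 3 receptors were not called in any group. Their log2 differences in the challenged mice were -0.80 for Fzd7, -0.43 for Fzd6 and -0.28 for Fzd5, and mice of Fzd5 overlapped between NT and the challenged groups.

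Of the 6 measured antagonists, 1 rose, 2 fell and 3 were not called. Sfrp1, which binds Wnts outside the cell, had log2 signals of 5.84 and 5.72 in the NT mice, 6.97 and 7.14 in Ctrl-F, 6.82 and 7.17 in Cap-F, and 7.25 and 7.02 in ODNcap-F. Challenged mice of every feed were above both NT mice, and the log2 difference was 1.28 ± 0.12 (SE, adjusted p = 0.000251), or 0.74 and not called under normexp. Wif1, the Wnt inhibitory factor, moved the other way, with log2 signals of 9.65 and 9.69 in the NT mice, 7.57 and 7.44 in Ctrl-F, 7.47 and 7.92 in Cap-F, and 7.54 and 7.89 in ODNcap-F. All challenged mice were below NT by more than the spread within any group, and the log2 difference was -2.03 ± 0.15 (SE, adjusted p = 9.78e-05).

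Dkk3, a dickkopf relative whose part in Wnt signalling is less settled, had log2 signals of 12.46 and 12.64 in the NT mice, 11.27 and 11.30 in Ctrl-F, 11.82 and 11.84 in Cap-F, and 11.37 and 11.37 in ODNcap-F. The groups did not overlap, Cap-F mice lay nearest to NT, and the log2 difference over the 3 groups was -1.05 ± 0.06 (SE, adjusted p = 5.49e-05). Cap-F alone gave -0.71 and was not called. Without NT mouse 2 the value over the 3 groups was -0.96, with scaling to the 75th percentile -0.99 and over the mean of its probes -0.98, none of them called, and the dimmer probe gave -0.91.

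Sfrp2, Sfrp4 and Sfrp5, relatives of Sfrp1, were not called. Their log2 differences were 0.57 ± 0.38, -0.23 ± 0.50 and -0.49 ± 0.20 (SE). Of these, Sfrp4 differed most between mice of 1 group, with a log2 signal of 4.03 and 4.76 for Ctrl-F, 4.96 and 6.39 for Cap-F and 5.02 and 6.37 for ODNcap-F. For Sfrp4, mouse 2 was higher than mouse 1 in Cap-F and in ODNcap-F, as it was for the cardiomyocyte and adipocyte sums. The log2 summed cardiomyocyte signal was 9.98 and 13.31 in Cap-F and 12.78 and 13.55 in ODNcap-F. The goblet cell, ciliated cell, fibroblast, smooth muscle, B and plasma cell and cartilage sums had the same order in both groups, so this order singles out no list. In NT, mouse 2 was lower for the cardiomyocyte and adipocyte sums, while Sfrp4 differed little between the NT mice. The part of these markers in the spread of Sfrp4 was not tested.

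The R-spondins differed among themselves. Rspo2, known for limb, lung and airway cartilage development, had log2 signals of 2.25 and 3.08 in the NT mice, 5.54 and 5.34 in Ctrl-F, 6.15 and 5.82 in Cap-F, and 5.99 and 5.39 in ODNcap-F. Both NT values were below background and all challenged values above it, so that Rspo2 was at least 4.23-fold higher in the challenged mice (adjusted p = 0.000184). Under normexp its log2 difference was 0.66, which is less than this bound, and was not called. Rspo2 passed the background filter only through the challenged groups, so its p is not separate support for the rise. The 2 measured cartilage markers were higher in the same mice, as were the goblet, B and plasma, macrophage, eosinophil and T cell sums. A link of these lists to Rspo2 was not tested.

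Rspo1, known from ovary development and as a growth factor of intestinal epithelium, had log2 signals of 11.34 and 11.37 in the NT mice, 9.80 and 9.21 in Ctrl-F, 9.86 and 9.44 in Cap-F, and 9.75 and 9.66 in ODNcap-F. It fell in all 3 groups, and the log2 difference was -1.73 ± 0.18 (SE, adjusted p = 0.000367). Rspo4, known from nail growth, had log2 signals of 5.58 and 5.66 in the NT mice, 3.84 and 4.43 in Ctrl-F, 4.11 and 3.95 in Cap-F, and 4.73 and 5.07 in ODNcap-F. Only 1 of the Ctrl-F arrays and none of the Cap-F arrays were above background, so that it was at least 2.94-fold lower in Cap-F than in NT (adjusted p = 0.00141). In ODNcap-F, where both arrays were above background, the log2 difference was -0.72 and not called. Under normexp its log2 difference was -0.42 over the 3 groups and -0.46 in Cap-F, and neither was called. The Cap-F value under normexp is a smaller fall than the bound given for Cap-F. Rspo3, known from vessel development, overlapped between the groups, with a log2 difference of -0.24 ± 0.18 (SE).

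Lgr4, the R-spondin receptor that was measured, had log2 signals of 6.87 and 6.96 in the NT mice, 5.40 and 5.32 in Ctrl-F, 6.39 and 6.79 in Cap-F, and 5.89 and 5.76 in ODNcap-F. Ctrl-F mice were the lowest, ODNcap-F mice in between, and Cap-F mice near NT. It was called lower in Ctrl-F (-1.56 ± 0.14 SE, adjusted p = 0.000278) and in ODNcap-F (-1.09 ± 0.14 SE, adjusted p = 0.00114) and not in Cap-F (-0.32 ± 0.14 SE). Under normexp the log2 differences were -0.85 in Ctrl-F and -0.66 in ODNcap-F, neither called. A dimmer probe of the same transcript gave log2 signals of 5.71 and 5.94 for NT, 4.79 and 4.63 for Ctrl-F, 4.75 and 4.78 for Cap-F, and 4.93 and 4.96 for ODNcap-F. The probes thus disagreed in Cap-F, where the dimmer one was as low as in Ctrl-F, with a log2 difference from NT of -1.06.

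Axin2, the feedback target, had log2 signals of 8.04 and 8.37 in the NT mice, 7.32 and 7.04 in Ctrl-F, 7.43 and 7.09 in Cap-F, and 7.19 and 6.90 in ODNcap-F. All challenged mice were below both NT mice, and the log2 difference was -1.05 ± 0.15 (SE, adjusted p = 0.00157). It was called in Ctrl-F (-1.03) and ODNcap-F (-1.16), and Cap-F stood at -0.95. NT mouse 2 was the higher of the NT mice, and without it the value over the 3 groups was -0.88 and not called. Without Cap-F mouse 2 it was -0.99 and without ODNcap-F mouse 2 -1.0, just under the fold of 2, and under normexp -0.76.

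**Figure D4:**
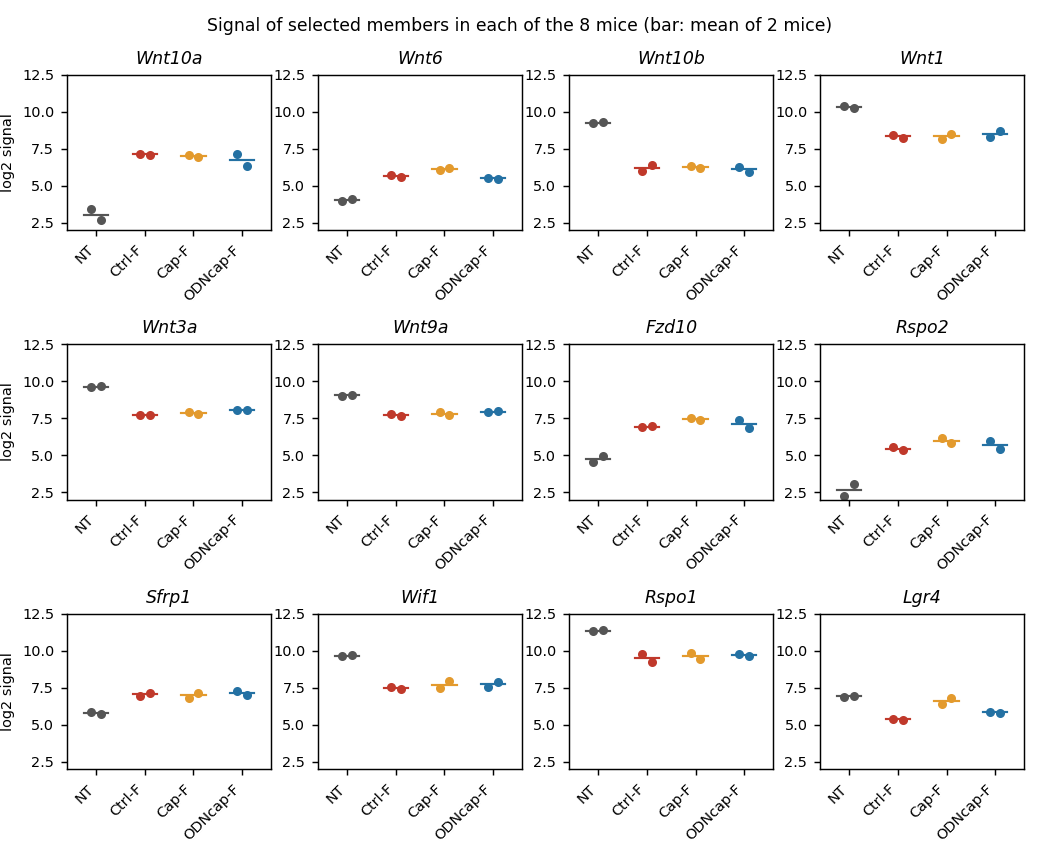
Log2 signal of 12 of the genes in each of the 8 mice, with 1 point per mouse and a bar at the mean of the 2 mice of a group. In Wnt10a, Wnt6, Fzd10, Rspo2 and Sfrp1 the challenged mice lie above both NT mice and in the other genes below, with the Cap-F mice of Lgr4 nearest to NT. The NT points of Wnt10a and Rspo2 were not well above background.

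A list of 73 other genes of Wnt signalling was examined beside these families, and 65 of them were measured, all above background on all 8 arrays. In the challenged mice 3 rose, 12 fell and 50 were not called, so that 23.1% were called, near the 21.8% of all genes. The same 15 genes were called against NT in each of the 3 groups. The median log2 difference was -0.50, against -0.10 over all genes. The 3 genes that rose were Celsr3, Myc and Cd44. Celsr3, a cadherin of planar polarity, had log2 signals of 4.87 and 4.90 in NT and, as lowest, median and highest of the 6 challenged mice, 6.69, 7.02 and 7.21 (log2 difference 2.08 ± 0.12 SE). Myc, a growth regulator and Wnt target, had 7.42 and 7.36 and 9.19, 9.30 and 9.34 on the same log2 scale (1.89 ± 0.06). Cd44, a matrix receptor also found on leukocytes, had 10.70 and 10.64 and 11.79, 11.94 and 12.03 (1.25 ± 0.08). In all 3 genes the groups stood apart.

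Among the 12 genes that fell, Daam2, a formin that joins dishevelled to the actin skeleton, had log2 signals of 9.93 and 9.68 in NT and, as lowest, median and highest of the challenged mice, 7.77, 7.97 and 8.23 (log2 difference -1.81 ± 0.12 SE). Prickle1 and Prickle2, cytoplasmic polarity proteins, had log2 differences of -1.64 ± 0.07 and -1.58 ± 0.07. Lef1, a nuclear partner of beta-catenin, had log2 signals of 10.53 and 10.27 in NT and 8.74, 8.97 and 9.24 in the challenged mice (log2 difference -1.39 ± 0.14). The log2 differences were -1.37 ± 0.08 for Gpc3, a glypican of the cell surface, -1.32 ± 0.07 for Btrc, which marks beta-catenin for breakdown, and -1.32 ± 0.13 for the receptor Tnfrsf19. The 10 genes named here had adjusted p-values of 0.000315 or less by limma, and the other 5 that fell had log2 differences of -1.18 to -1.06.

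The second question is whether the feeds changed these genes among the challenged mice. None of the 34 genes was called by limma between ODNcap-F and Ctrl-F, ODNcap-F and Cap-F, or Cap-F and Ctrl-F, where 0% of all genes were called. None of the 65 pathway genes was called either, and none passed an unadjusted p under 0.05 together with a fold over 2. The lowest adjusted p over the 34 genes was 0.649, 0.155 and 0.109 in these comparisons. At an unadjusted p under 0.05, 4, 8 and 8 of the 34 genes passed, where 5.80%, 11.7% and 15.3% of all genes did, and with a fold over 2 as well 0, 0 and 1, where 0.513%, 0.519% and 0.724% of all genes did. The local-pooled-error test called 0, 0 and 1, where it called 0.417%, 0.380% and 0.338% of all genes. The 95% interval of a difference reached a median of 0.37 to either side on the log2 scale.

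The gene behind the last counts was Lgr4, which exceeded its Ctrl-F level in Cap-F by 1.23 ± 0.14 on the log2 scale (SE, adjusted p = 0.109 by limma, 95% interval 0.89 to 1.57). Each Cap-F mouse exceeded each Ctrl-F mouse in Lgr4. With 2 mice against 2, the lowest two-sided permutation p that can be reached is 0.333. The log2 difference of Lgr4 was -0.76 ± 0.14 for ODNcap-F minus Cap-F (adjusted p = 0.208) and 0.47 ± 0.14 for ODNcap-F minus Ctrl-F (adjusted p = 0.728). The dimmer probe of Lgr4 gave a log2 difference of 0.05 between Cap-F and Ctrl-F and 0.18 between ODNcap-F and Cap-F.

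Cap-F differed from Ctrl-F at an unadjusted p under 0.05 also in Wnt4 (log2 difference 0.74), Dkk3 (0.55), Fzd10 (0.49), Wnt6 (0.46), Fzd2 (0.40), Wnt5a (0.32) and Wnt5b (-0.25), and Cap-F was the higher in all of these except Wnt5b. ODNcap-F differed from Cap-F in Wnt6 (-0.63), Dkk3 (-0.47) and Fzd2 (-0.36), where it was lower, and in Fzd4 (0.31), Wnt5b (0.22) and Wnt3a (0.20), where it was higher. Both Cap-F signals of Rspo4 were below background, and the ODNcap-F level of Rspo4 exceeded them at least 1.79-fold. ODNcap-F differed from Ctrl-F in Rspo4 (0.77), Wnt11 (0.37) and Wnt3a (0.32) beside Lgr4, and was the higher in each. None of these passed adjustment, with adjusted p-values of 0.113 to 0.740. The 3 comparisons share their mice, so each difference is given for itself.

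**Figure D5:**
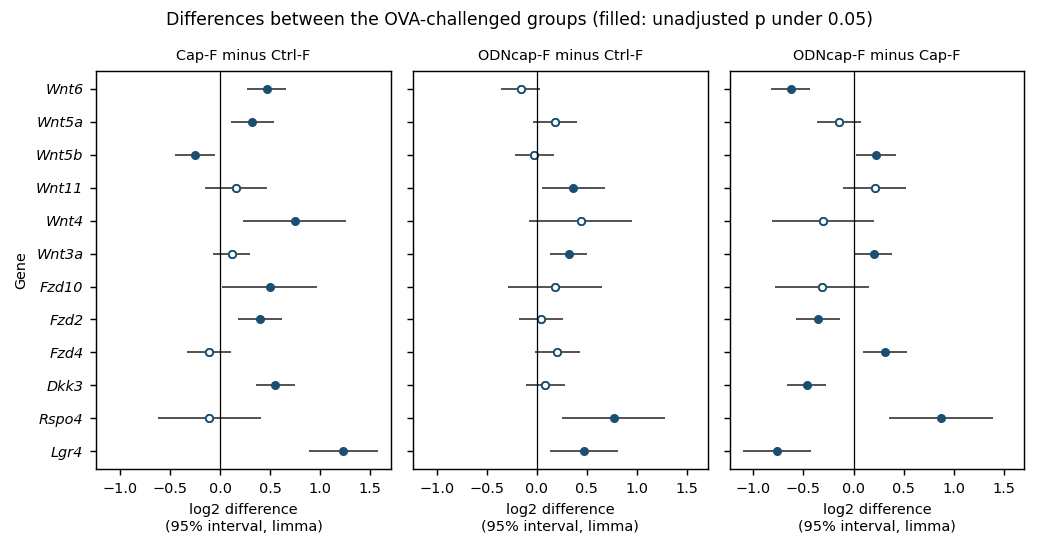
Log2 differences between the challenged groups (panels) for the 12 genes with an unadjusted p under 0.05 in at least 1 of these comparisons, with the 95% interval from limma as line. Filled points have an unadjusted p under 0.05 and none passed adjustment. For Rspo4 in ODNcap-F minus Cap-F the fitted value is plotted, not the bound. The point farthest from 0 is Lgr4 in Cap-F minus Ctrl-F, at 1.23.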

How the data were processed

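Lung RNA of 8 mice, 2 per group, was hybridized to 8 arrays. Per the file headers, the authors deposited for each array the intensity of every spot as Agilent Feature Extraction 11.0 gave it, background-subtracted and not normalized between arrays, with raw medians and flags. A second deposited file holds the authors' log2 values, quantile normalized after a filter the methods do not describe, which served as an alternative.

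Here, 792 flagged spot values among 59305 spots per array were set to missing, intensities were put on the log2 scale, averaged per probe (56605) and quantile normalized. A probe was kept if well above background in both mice of some group (37116 probes). Names came from accessions through a RefSeq table, which named 32994 probes, and the brightest probe stands for a gene. No spot was saturated, the lowest log2 value well above background was 3.61 to 4.18, and precision is limited by the number of arrays. Where a whole group lay below background, the fold is a bound against that floor ("at least"). Groups were compared with 1 limma fit (limma 3.58.1, R 4.3.3) over all 8 arrays, with 4 residual degrees of freedom plus 1.96 from the moderation, and Benjamini-Hochberg adjustment over the kept probes. Called means an adjusted p under 0.05 and a fold over 2. The study's local-pooled-error test was rebuilt, with 100 bins and a spline with 10 degrees of freedom, as an alternative for pairs of groups. Both tests were also run on simulated data with independent normal noise and no effect of the slide row. The outcome is not given here, and it could not bear on the row.

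The genes, the pathway list and the marker lists were chosen with earlier results of these data known. Values of all 8 mice are given for genes called in a comparison or with an unadjusted p under 0.05 between challenged groups, and at most 10 pathway genes, those with the largest log2 differences, are named with values. Alternatives were scaling to the 75th percentile, normexp with an offset of 50 on median signals, the deposited table, no filter, a filter on all 8 arrays, the mean of a gene's probes, an intensity trend, the replicate number as a block, each mouse left out, an unadjusted p and no minimum fold.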

Additional observations from a re-analysis of the deposited data

How the results depend on the processing

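None of the 79 calls of a gene against NT changed direction under any alternative run. With normexp the number of genes called against NT was 14 over the challenged mice (21 in the report), 13 for Ctrl-F (22), 10 for Cap-F (16) and 11 for ODNcap-F (20), and 32 of the 79 calls were lost: all those of Axin2, Fzd2, Fzd3, Fzd8, Lgr4, Rspo2, Rspo4, Sfrp1 and Wnt6, and those of Wnt4 (-0.98) and Wnt9a (-0.91) in ODNcap-F and of Wnt7a (-0.94) in Cap-F. With no minimum fold Cap-F gave 25, of which 5 rose and 20 fell. In the same setting 5 rose and 21 fell for Ctrl-F, 5 and 21 for ODNcap-F, and 5 and 22 over the challenged mice. No share over all genes is given for this setting, and the comparisons share the NT mice. These counts are therefore not read as a result about the groups. Leaving out each mouse in turn gave 16 to 22 genes over the challenged mice, 20 to 23 for Ctrl-F, 16 to 19 for Cap-F and 17 to 22 for ODNcap-F, with the fewest without NT mouse 2, which lost 11 of the 79 calls. With 1 mouse left in a group, it was assumed to vary like the others. Besides those given in the report, calls of single groups were lost without NT mouse 2 for Axin2 (-0.86 in Ctrl-F, -1.0 in ODNcap-F), Fzd1 (-0.94 in Ctrl-F, -0.95 in ODNcap-F) and Fzd2 (-0.96 in ODNcap-F), without NT mouse 1 for Fzd3 (-1.0 in ODNcap-F), without ODNcap-F mouse 1 for Fzd3 (-0.88 in ODNcap-F), without Ctrl-F mouse 1 for Fzd2 (-0.99 in Ctrl-F), without Ctrl-F mouse 2 for Axin2 (-0.89 in Ctrl-F) and over the mean of its probes for Lgr4 (-0.99 in ODNcap-F).

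Between challenged groups the count stayed at 0 in all alternatives except Cap-F minus Ctrl-F, where Lgr4 made it 1 with an intensity trend, 1 with an unadjusted p and 1 with the local-pooled-error test. Leaving out each mouse gave 0 to 0. The replicate number of the labels as a replicate block kept the counts at 21 over the challenged mice, 22, 16 and 20 against NT and 0, 0 and 0 between challenged groups. Deviations of mice with the same number correlated at -0.01 to 0.16, so the numbers were not taken to pair the mice. The row of the slide as a block was not run, as each group lies in 1 row. The median log2 difference of the 34 genes in the challenged mice was -0.95 with scaling to the 75th percentile and -0.61 with normexp. Where values were lost the cause was not tested. Genes near background have the least certain fold changes, and 2 mice a group limit what could be detected between feeds.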
